A study of Arabidopsis thaliana with 18 samples.

Results

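The early shade-avoidance regulators described here are 9 of the 27628 genes in the authors' deposited table. They are 5 homeodomain-leucine zipper genes of class II (HD-Zip II), namely ATHB2 (AT4G16780), ATHB4 (AT2G44910), HAT1 (AT4G17460), HAT2 (AT5G47370) and HAT3 (AT3G60390). The other 4 are helix-loop-helix genes, namely HFR1 (AT1G02340), PIL1 (AT2G46970), PAR1 (AT2G42870) and PAR2 (AT3G58850). They were picked by locus as known shade genes, with results of these data already known, among them the RNA values of ATHB2 and ATHB4. All values of the 9 genes are therefore a description that supports nothing further, and each adjusted p is that of the authors.

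Whole seedlings of 3 genotypes, wild-type Col-0 and the mutants ceres-1 and ceres-2 in the Col-0 background, were harvested at 9 days of age and Zeitgeber time 5 h, without any named treatment. CERES is a plant protein that interacts with eIF4E, the cap-binding factor of translation initiation. Each genotype had 3 libraries of ribosome footprints, the mRNA pieces covered by ribosomes, and 3 of RNA, 18 libraries in all. The labels do not describe the lesion of either allele. Only fold changes of the mutants over Col-0 on the log2 scale were given, with adjusted p-values and no value per library, so no replicate value, SD or depth can be shown, and the tissue could not be checked against marker levels. A gene is called here when the authors' adjusted p is below 0.05. The targeted gene CERES (AT4G23840) was lower in both mutants, and the authors' deposited table puts its RNA log2 fold change at -4.43 in ceres-1 and -2.92 in ceres-2.

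In full daylight, active phytochrome B holds back the PIF transcription factors. Light filtered through leaves is poor in red and rich in far-red, which inactivates phytochrome B and lets PIFs bind G-box and related E-box DNA. The genes described here are among the first to be induced. The HD-Zip II proteins are mostly repressors of transcription that shape elongation and leaf development. HFR1, PIL1, PAR1 and PAR2 act as brakes on the response, HFR1, PAR1 and PAR2 by pairing with PIFs and keeping them from DNA.

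ATHB2 has the largest ceres-2 values of the group. The 300 bases before its annotated start are shown because they hold several copies of AATNATT, a loose pattern searched here as an HD-Zip site. The pattern leaves its central base and its flanking bases open, so a match does not single out a site of HD-Zip II proteins. The sequence is from the RefSeq assembly TAIR10.1, chr4:9448814-9449113, plus strand, 5′ to 3′, and the build used by the authors is not known. Capitals mark matches to the 3 motifs searched on both strands, AATNATT, the G-box CACGTG and the PBE-box CACATG.
ATHB2: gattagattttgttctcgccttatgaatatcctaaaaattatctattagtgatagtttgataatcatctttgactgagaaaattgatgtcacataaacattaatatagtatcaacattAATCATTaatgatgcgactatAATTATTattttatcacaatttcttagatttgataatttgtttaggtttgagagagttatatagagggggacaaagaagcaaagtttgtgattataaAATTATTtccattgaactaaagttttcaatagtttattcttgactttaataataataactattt
The window holds 3 matches, all to AATNATT, beginning at positions -182, -161 and -64 from the gene start, and no G-box or PBE-box letters. At least 1 AATNATT match was found in the same window of 5 of the 9 genes and of 35.3% of 27418 genes.

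PAR1 and PAR2 are close relatives, and a stretch before their starts is shown because each holds a cluster of PBE-box letters in a like arrangement. The stretch runs from -788 to -714 for PAR1 (chr2:17838332-17838406) and from -787 to -712 for PAR2 (chr3:21761102-21761177). Both are on the minus strand of TAIR10.1 and written 5′ to 3′, with CACATG or its complement CATGTG in capitals.
PAR1: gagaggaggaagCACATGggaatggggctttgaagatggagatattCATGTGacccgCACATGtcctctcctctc
PAR2: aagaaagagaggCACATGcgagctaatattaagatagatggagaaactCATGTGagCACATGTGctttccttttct
PAR1 has 3 PBE-box matches here and PAR2 has 4, of which 2 overlap in a palindrome. PAR1 has a further match beginning at -910 and PAR2 at -128.

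**Figure D1:**
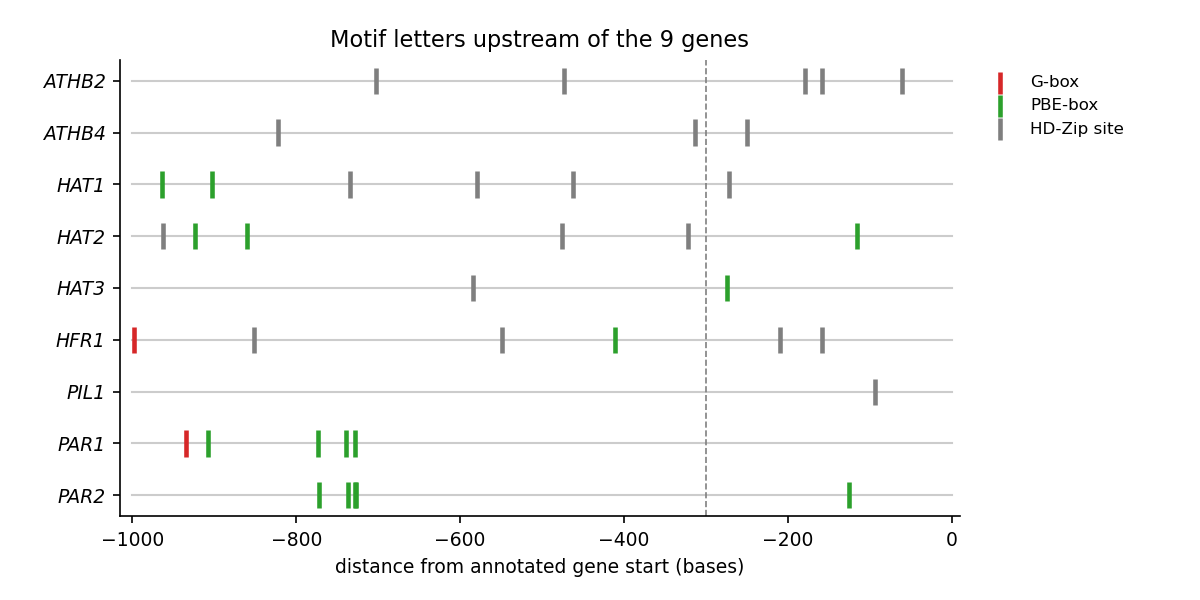
Positions of G-box, PBE-box and AATNATT (HD-Zip site) letters in the 1000 bases before the annotated start of each gene, with the x axis giving the distance from that start in bases and the dashed line marking 300 bases. PAR1 and PAR2 each have a cluster of PBE-box letters between -776 and -724, while ATHB2, ATHB4 and PIL1 carry AATNATT letters and neither box.

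Within 1000 bases, PBE-box letters were found in 6 of the 9 genes and in 37.7% of 27418 genes, and the G-box in 2 of 9 (HFR1 and PAR1) and in 14.8%. Within 300 bases these shares were 3 of 9 beside 13.1% for the PBE-box and 0 of 9 beside 7.08% for the G-box. AATNATT was found within 1000 bases in 7 of 9 genes and in 68.6% of all. A match is a match of letters only, and none of these shares bears on binding.

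ATHB2, the HD-Zip II factor long used as a marker of the shade response, was higher in ceres-2 in both layers. By the authors' deposited table its RNA was 5.39-fold above Col-0 (log2 fold change 2.43) and its footprints 4.05-fold (log2 fold change 2.02). The authors' deposited table gives adjusted p-values of 1.82e-19 for RNA and 3.89e-25 for footprints, each the smallest of its comparison. By size, ATHB2 stood at position 4 among 19000 genes with an adjusted p in RNA and at position 1 among 14453 in footprints. For ceres-1, the authors' deposited table holds a 2.04-fold RNA value (log2 fold change 1.03, adjusted p = 0.188) and a 1.63-fold footprint value (log2 fold change 0.70, adjusted p = 0.143), neither called. These ceres-1 values stood at position 759 among 24142 genes in RNA and at position 53 among 9967 in footprints. Both mutants were compared with the same Col-0 libraries, so a like direction in the other allele is no independent repeat. Because whole seedlings were used, a change in the share of cells that express a gene and a change in RNA per cell cannot be told apart.

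ATHB4, which acts with HAT3 in shade growth and in setting leaf polarity, had the next largest values in ceres-2. There the authors' deposited table shows a 3.40-fold rise of its RNA (log2 fold change 1.77, adjusted p = 0.0308). Its ceres-2 footprints stand in the authors' deposited table at 1.67 (log2), a 3.19-fold value that has no adjusted p. For ceres-1, the log2 fold changes that the authors' deposited table gives are 0.54 in RNA (adjusted p = 1.0) and 0.71 in footprints (no adjusted p). ATHB4 was thus called in ceres-2 RNA, while its footprints were tested in neither mutant.

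HAT1 and HAT2 are the closest pair among the 5, with 72.2% identical columns in an alignment of their coding sequences. HAT1, a transcriptional repressor that acts with BES1 in brassinosteroid responses, stands in the authors' deposited table at ceres-2 log2 fold changes of 0.75 in RNA (adjusted p = 0.326) and 0.93 in footprints (adjusted p = 1.42e-05). The footprint value is a 1.91-fold rise and was called, while the RNA value, 1.68-fold, was not. HAT2, an auxin-induced gene, lies closer to Col-0, and the authors' deposited table puts it at 0.19 in RNA and 0.33 in footprints of ceres-2 on the log2 scale (adjusted p = 1.0 and 0.559). In ceres-1, log2 fold changes of HAT1 from the authors' deposited table are 0.32 in RNA and 0.55 in footprints (adjusted p = 1.0 and 0.159). Those of HAT2 are 0.031 and 0.11 (adjusted p = 1.0 and 0.944) by the same authors' deposited table. Whether reads of this pair could be shared through near matches was not examined. Exact matches of 25 bases lie in a short stretch only. It is shown because it is the longest exact match of their coding sequences, 38 bases that encode part of the homeodomain, at coding positions 517 to 554 of HAT1 (chr4:9740550-9740587, plus strand) and 502 to 539 of HAT2 (chr5:19216891-19216928, minus strand).
HAT1 and HAT2: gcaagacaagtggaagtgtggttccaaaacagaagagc
Of all 25-base stretches in the transcripts of HAT1 and of HAT2, 0.986% and 1.0% also occur in another gene's transcript, in each case that of the partner. For the other 7 genes these shares lay between 0% and 0.422%, with ATHB2 and HFR1 at 0.

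HAT3, the partner of ATHB4, was near Col-0 in ceres-1 and had modest values above it in ceres-2, none called. For ceres-2 the authors' deposited table has log2 values of 0.44 in RNA (adjusted p = 1.0) and 0.49 in footprints (adjusted p = 0.279). For ceres-1 the authors' deposited table gives -0.12 in RNA and -9.81e-04 in footprints on the same scale (adjusted p = 1.0 and 0.999). In ceres-2 RNA the order by size was ATHB2, ATHB4, HAT1, HAT3 and HAT2, and the order in footprints was the same. Whether neighbours in this order differ could not be tested, because no error of a fold change is given.

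**Figure D2:**
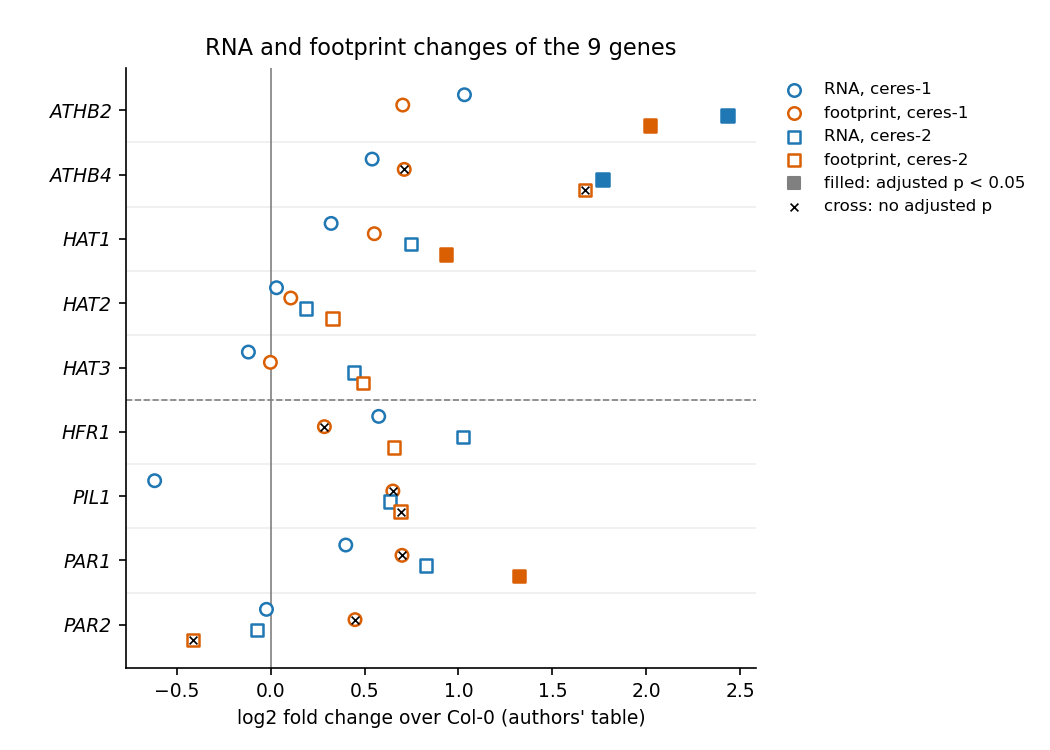
The log2 fold change over Col-0 (x axis, authors' table) of each of the 9 genes, with RNA in blue, footprints in orange, ceres-1 as circles and ceres-2 as squares. Filled symbols have an adjusted p below 0.05, crosses mark values without an adjusted p, and the dashed line parts the HD-Zip II genes from the helix-loop-helix genes. Filled symbols are found in ceres-2 only, at ATHB2 in both layers, at ATHB4 in RNA and at HAT1 and PAR1 in footprints.

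HFR1, an atypical bHLH protein that sequesters PIFs, lay just outside the threshold in ceres-2 RNA. By the authors' deposited table it was at 2.04-fold there (log2 fold change 1.03, adjusted p = 0.0607). Footprints of HFR1 in ceres-2 stand in the authors' deposited table at 0.66 (log2), with adjusted p = 0.333. In ceres-1, log2 values of HFR1 from the authors' deposited table are 0.58 in RNA (adjusted p = 1.0) and 0.29 in footprints (no adjusted p). Like ATHB2, HFR1 had a smaller value in footprints than in RNA in each mutant.

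PIL1, a PIF-related protein and a rapid shade marker, had values of opposite sign in the 2 layers of ceres-1. There the authors' deposited table has its RNA at -0.62 on the log2 scale (adjusted p = 1.0) and its footprints at 0.65 (no adjusted p). For ceres-2 both are above 0 in the authors' deposited table, at 0.64 in RNA (adjusted p = 1.0) and 0.69 in footprints (no adjusted p). None of the 4 values was called.

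PAR1 and PAR2 are short helix-loop-helix cofactors without a DNA-binding region, and their coding sequences of 357 bases each have 75.3% identical alignment columns. Footprints of PAR1 rose 2.5-fold in ceres-2 by the authors' deposited table (log2 fold change 1.32, adjusted p = 3.83e-04), at position 21 by size among 14453 genes. Its RNA log2 values in the authors' deposited table are 0.83 in ceres-2 (adjusted p = 0.588) and 0.40 in ceres-1 (adjusted p = 1.0), and its ceres-1 footprints are at 0.70 without an adjusted p. PAR2 differs from PAR1 in sign in ceres-2, where the authors' deposited table puts it at -0.072 in RNA (adjusted p = 1.0) and -0.41 in footprints (no adjusted p). For ceres-1, PAR2 has -0.022 in RNA (adjusted p = 1.0) and 0.45 in footprints (no adjusted p) on the log2 scale of the authors' deposited table. PAR2 was the only one of the 9 below 0 in ceres-2 in either layer, and the difference between the pair was not tested.

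As a group, 2 of 9 genes were called higher in ceres-2 RNA (ATHB2 and ATHB4), beside 0.116% of the 19000 genes tested, and 0 were called lower, beside 0.0211%. In ceres-2 footprints 3 of the 6 genes with an adjusted p were called higher (ATHB2, HAT1 and PAR1), beside 0.733% of 14453 genes, and 0 lower, beside 1.15%, so that 1.88% of all genes were called in either direction. In ceres-1 RNA 0 of 9 were called, beside 0.0124% of 24142 genes called higher and 0.0124% lower (0.0249% in either direction). In ceres-1 footprints 0 of 4 were called, beside 0.351% of 9967 genes higher and 0.291% lower (0.642% in either direction). These calls, from the authors' deposited table, helped to choose the genes, so nothing is read from the counts. No unadjusted p-values were given, so the counts of 0 have no such count beside them. Medians of the 9 log2 fold changes, from the authors' deposited table, were 0.75 in ceres-2 RNA and 0.69 in ceres-2 footprints, with -0.0048 and 5.49e-04 over all genes tested. For ceres-1, medians over the authors' deposited table were 0.32 in RNA and 0.55 in footprints for the 9 genes, and -0.0041 and 0.0064 over all genes tested. Footprint adjusted p-values were missing for 5 of the 9 genes (ceres-1) and for 3 (ceres-2).

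Values in ceres-2 lay above those in ceres-1 for 8 of 9 genes in RNA and for 8 of 9 in footprints, PAR2 being the exception in each. The difference of the log2 fold changes, ceres-2 minus ceres-1, was 1.40 for ATHB2 RNA and 1.32 for its footprints, computed from the authors' deposited table. For ATHB4 the same difference from the authors' deposited table was 1.23 in RNA and 0.96 in footprints, and for PIL1 it was 1.25 in RNA and 0.042 in footprints. Among all genes with an adjusted p in both mutants, the 5th and 95th percentiles of this difference, from the authors' deposited table, were -0.28 and 0.37 in RNA and -0.31 and 0.31 in footprints. ATHB4 and PIL1 have no footprint adjusted p in either mutant, so the footprint limits come from a set of genes that leaves them out. The difference between the alleles was not tested, since no such comparison is given.

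No change in translational efficiency was called for these genes. Efficiency is the footprint level relative to RNA, and its change is taken here as the log2 fold change of footprints less that of RNA in one mutant. The deposited efficiency fold change lay within 0.1 of the footprint fold change for 99.6% of genes in ceres-1 and 99.3% in ceres-2. It was therefore not used for the size or direction of the 9 genes. An efficiency adjusted p exists for 6 of the 9 genes, and in the authors' deposited table it runs from 0.796 to 0.954 for ceres-1 and from 0.906 to 0.998 for ceres-2. What this adjusted p tests could not be checked. For ATHB2 in ceres-2 the authors' deposited table pairs an efficiency value of 2.01 (log2) with adjusted p = 0.906. Its footprint value of 2.02 there has adjusted p = 3.89e-25. Over all genes, 0.107% were called in efficiency in ceres-1 and 0.041% in ceres-2. By the sign of the deposited efficiency column, which follows the footprints, 0.066% were higher and 0.0413% lower in ceres-1. By that sign 0% were higher and 0.041% lower in ceres-2. The differences for ceres-2, from the authors' deposited table, were -0.41 for ATHB2, -0.37 for HFR1, -0.34 for PAR2, 0.19 for HAT1 and 0.50 for PAR1. The other 4 genes lay between -0.092 and 0.14 there. For ceres-1 the differences from the authors' deposited table were -0.33 for ATHB2, -0.29 for HFR1, 0.47 for PAR2, 0.23 for HAT1 and 0.30 for PAR1. ATHB4, HAT2 and HAT3 lay between 0.076 and 0.17 in ceres-1. PAR2 and ATHB4 had opposite signs in the mutants. Over 12049 genes, the 5th and 95th percentiles were -0.48 and 0.51 in ceres-1 and -0.47 and 0.46 in ceres-2. PIL1 in ceres-1, at 1.27 and without an efficiency adjusted p, and PAR1 in ceres-2 lay outside these limits.

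**Figure D3:**
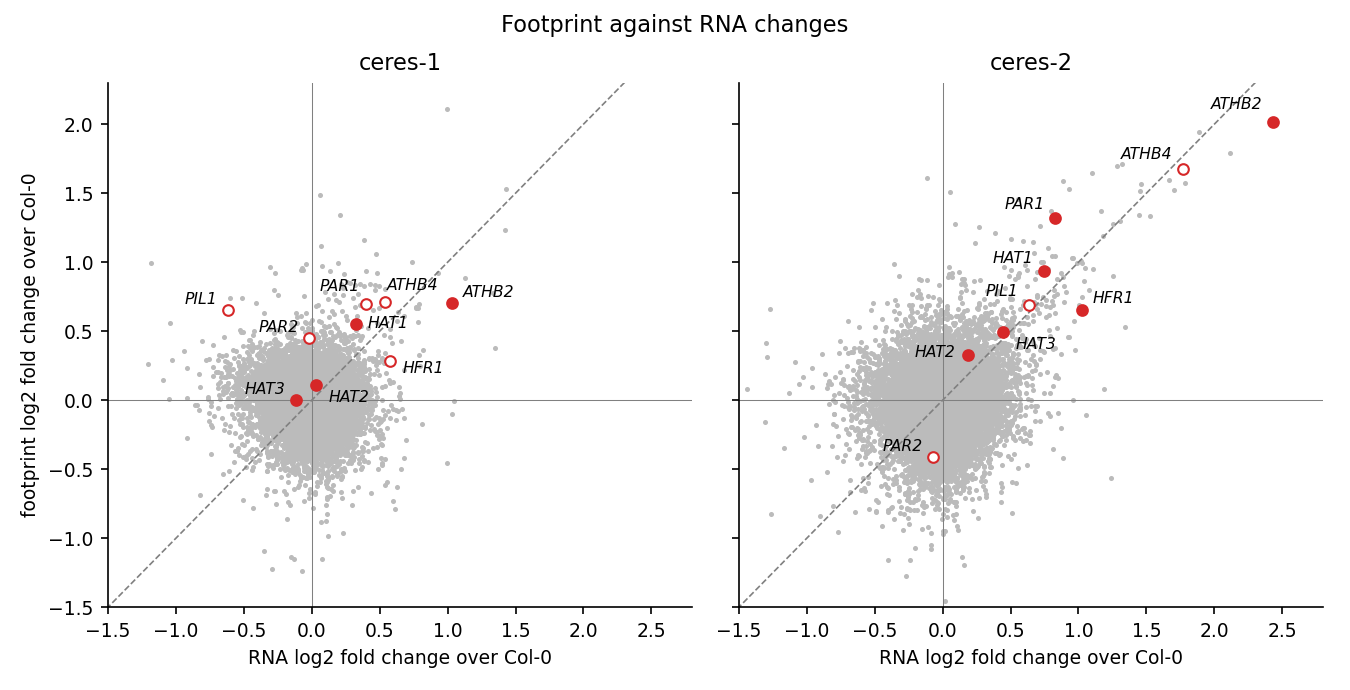
Footprint (y axis) against RNA (x axis) log2 fold changes over Col-0 in ceres-1 (left) and ceres-2 (right), with grey points for genes that have both adjusted p-values and red points for the 9 genes, open where no footprint adjusted p is given. The dashed line marks equal changes, and 1 grey gene per panel lies outside the axes. In ceres-2, ATHB2 and ATHB4 lie at the upper right. There ATHB2 (-0.41) and HFR1 (-0.37) are below the line, ATHB4 (-0.092) is close to it and PAR1 (0.50) is above it.

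Of the remaining HD-Zip II genes, HAT9, HAT14, HAT22, ATHB17 and ATHB18, 0 of 5 were called in any layer. Over all genes tested, 0.0249% (ceres-1) and 0.137% (ceres-2) were called in RNA in either direction. In footprints these shares were 0.642% and 1.88%. With shares this small, nothing is read from a count of 0 in a short list. Only 1 of the 5 genes, HAT22, had an adjusted p in footprints. Medians of the 5 in ceres-2, from the authors' deposited table, were -0.057 in RNA and 0.20 in footprints on the log2 scale. HAT22 itself stands in the authors' deposited table at 0.11 in RNA and 0.21 in footprints of ceres-2, with adjusted p = 1.0 and 0.897. For HAT9 and HAT14 the authors' deposited table has -0.42 and -0.057 in ceres-2 RNA, with adjusted p = 1.0 for each. Some of the 5 HD-Zip III genes specify the upper leaf side, and 1 of the 5, REV, is known to activate HD-Zip II genes. None of the 5 HD-Zip III genes was called, beside the same small shares over all genes, and nothing is read from this either. Their ceres-2 RNA log2 values in the authors' deposited table ran from -0.13, at PHB, to 0.26, at CNA, with PHV at -0.061.

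Among 9 PIF and related bHLH genes there was 1 call, at PIF4, a main driver of elongation in shade and warmth. It was 1 of 5 with an adjusted p in ceres-1 footprints, where 0.291% of all genes tested were called lower. Its ceres-1 footprints were lower by the authors' deposited table, with a log2 fold change of -0.56 and adjusted p = 0.0256. Its RNA had -0.22 in ceres-1 and 0.019 in ceres-2 (adjusted p = 1.0 for each), and its ceres-2 footprints -0.26 (adjusted p = 0.436), by the authors' deposited table. PIF7, the PIF most tied to shade, has -0.25 in RNA and 0.21 in footprints of ceres-2 by the authors' deposited table, with adjusted p = 1.0 and 0.932. SPT, a growth repressor, and UNE10 have -0.16 and -0.43 in ceres-2 RNA by the authors' deposited table, with adjusted p = 1.0 for each. Of 18 genes of light receptors and the COP1-HY5 module, in which COP1 marks HY5 for breakdown in the dark, 0 were called in any layer. Over all genes tested, 0.137% were called in ceres-2 RNA and 1.88% in ceres-2 footprints in either direction, so nothing is read from this 0. Medians of the 18 genes in ceres-2, from the authors' deposited table, were -0.050 in RNA and -0.11 in footprints. HY5 was lowest in RNA there, and the authors' deposited table gives -0.63 for HY5, -0.26 for BBX24 and 0.16 for BBX22, each with adjusted p = 1.0. PHYB, named after its values were seen because it is the main shade receptor, has 0.24 in RNA and -0.14 in footprints of ceres-2 by the authors' deposited table, with adjusted p = 1.0 and 0.893. Of 14 growth-related HLH and bHLH genes 0 were called, beside the same shares over all genes. Only 7 of the 14 (ceres-1) and 9 (ceres-2) had a footprint adjusted p. For this list the authors' deposited table gives 0.43 for PRE1, 0.46 for PRE3 and 0.34 for BEE2 in ceres-2 RNA, each with adjusted p = 1.0.

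Among 15 other genes that shade induces, 4 of the 14 with an adjusted p were called higher in ceres-2 RNA, beside 0.116% of all genes tested, and 1 of 5 in ceres-2 footprints, beside 0.733%. In ceres-1 RNA 0 of the 15 were called, beside 0.0249% of all genes tested in either direction. In ceres-1 footprints 0 of the 15 had an adjusted p. YUC9, an auxin synthesis enzyme, rose in ceres-2 RNA, and the authors' deposited table gives it 2.05 on the log2 scale with adjusted p = 0.00197. Its ceres-1 RNA has 0.13 (adjusted p = 1.0) and its ceres-2 footprints 0.98 (no adjusted p) by the authors' deposited table. YUC5 and YUC8, also of auxin synthesis, and ACS8, of ethylene synthesis, were the other 3 called in RNA. For these the authors' deposited table lists 2.90, 1.78 and 2.36 in that order, with adjusted p = 0.00774, 3.01e-04 and 0.0495, the last close to the threshold. Ceres-1 RNA of YUC5, YUC8 and ACS8 has 1.91, 1.07 and 1.05 by the authors' deposited table, none called. Other hormone synthesis genes of the list were not called, such as YUC2 and GA20OX1, named after their values were seen, with 0.63 and -0.14 in ceres-2 RNA by the authors' deposited table (adjusted p = 1.0 for each). YUC8 was the gene called in ceres-2 footprints, where the authors' deposited table gives it 1.58 with adjusted p = 4.63e-05 and gives YUC5 and ACS8 1.90 and 1.91 with none. The list was written with the RNA calls of YUC5, YUC8 and ACS8 known. IAA19 and IAA29, of auxin response, and XTH15, a cell wall enzyme, have -0.41, 0.048 and -0.072 in ceres-2 RNA by the authors' deposited table, with adjusted p = 1.0 for each, and IAA29 and XTH15 were named after their values were seen. GA20OX2, of gibberellin synthesis, and PKS4, a phytochrome signalling protein, have 0.95 and 0.46 in ceres-2 RNA by the authors' deposited table, with adjusted p = 1.0 for each.

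**Figure D4:**
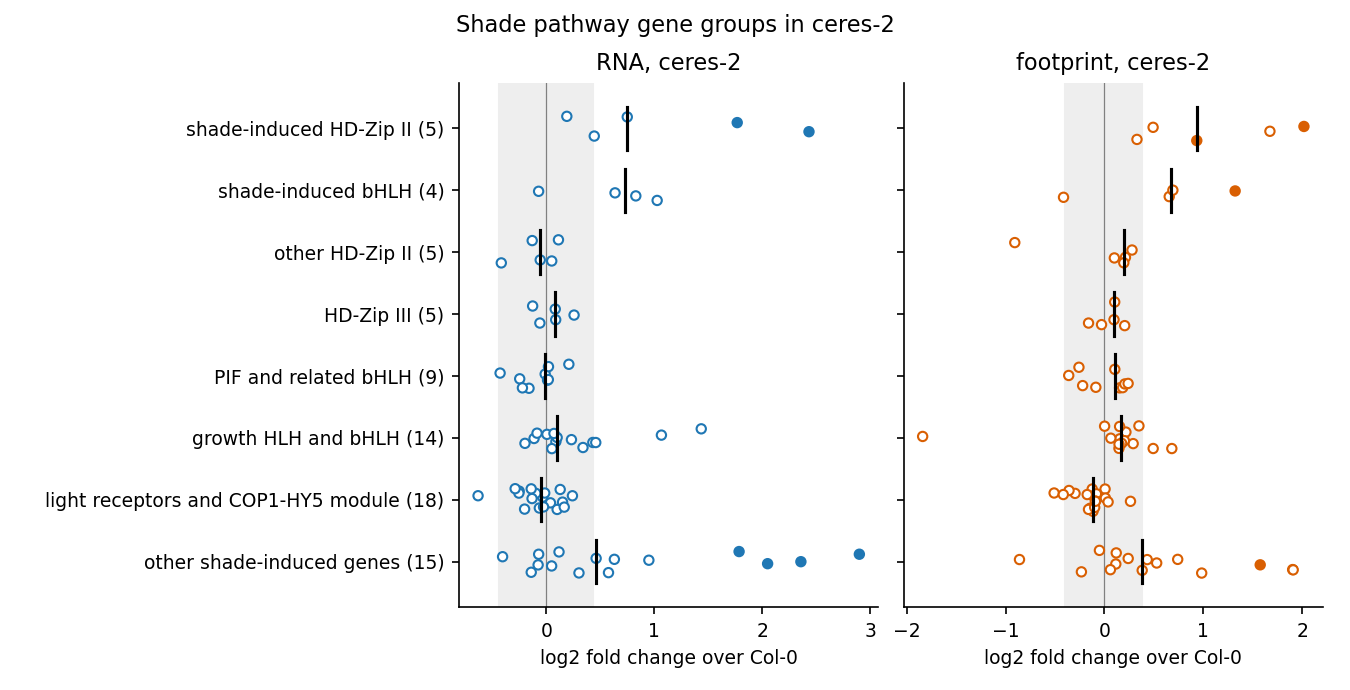
Log2 fold changes over Col-0 in ceres-2 (x axis; RNA left, footprints right) of each gene in 8 groups of the shade pathway, with the number of genes in brackets, filled points for an adjusted p below 0.05 and a black bar for the group median. The grey band spans the 5th to the 95th percentile of all genes tested. The RNA medians are 0.75 for the shade-induced HD-Zip II genes, 0.73 for the shade-induced bHLH genes and 0.46 for the other shade-induced genes. These genes were chosen with values known, and a median is not to be read against the band, which shows the spread of single genes.

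The genes with values most like those of ATHB2 were sought by Euclidean distance over 4 log2 fold changes (RNA and footprints in both mutants) among 9962 other genes with all 4 adjusted p-values. The nearest was AT5G21940 at a distance of 0.86, which the authors' deposited table puts at 1.89 in RNA and 1.94 in footprints of ceres-2. AT3G15450, AT5G19120, AT2G40000 (HSPRO2) and AT3G07350 followed at distances from 0.90 to 1.35. The distance uses sizes only, and the calls differ. AT5G21940 was called in the same comparisons as ATHB2. AT3G15450 was called in ceres-1 RNA and footprints (adjusted p = 0.00139 and 9.08e-06) but not in ceres-2 (adjusted p = 0.469 and 0.127). AT5G19120, HSPRO2 and AT3G07350 were called in footprints of both mutants. Genes without all 4 adjusted p-values were left out of the search, among them the shade-induced ACS8 and YUC8. By the authors' deposited table ACS8 has 2.36 in RNA and 1.91 in footprints of ceres-2, and 1.05 and 1.02 in ceres-1. The genes named as nearest are therefore nearest among those searched only. For the median of the 9 genes the nearest were AT4G35770 (SEN1), AT2G44130 (KMD3), AT5G60680, AT1G68840 (RAV2) and AT1G23390, at distances from 0.19 to 0.32. SEN1 is a gene of dark-induced senescence, KMD3 an F-box protein of cytokinin signalling and RAV2 a repressor of flowering. Ceres-2 footprints of SEN1, KMD3 and RAV2 have 0.60, 0.95 and 0.94 on the log2 scale of the authors' deposited table, with adjusted p = 0.0426, 6.15e-06 and 1.63e-09. The values of both mutants share the Col-0 libraries, so the likeness is a description.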

How the data were processed

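Footprint and RNA libraries of 9-day-old seedlings, 18 in all, were grouped by genotype and kind from their titles. Libraries not labelled as footprints were taken as RNA, as the table's column headings have it. TopHat2 2.1.0, featureCounts 1.6.2 and DESeq2 were used by the authors, per the submitters' processing notes. No genome build or strand setting is given in the sources used here, while the gene descriptions cite Araport11. The authors deposited log2 fold changes and adjusted p-values for RNA, footprints and efficiency, in 12 columns. Nothing says that replicates were separate cultures, so these p-values may measure technical spread only. No model of values per library, planned where such values exist, could be fitted, and depth is unknown.

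The members and lists were chosen with earlier results of these data known. Counts, medians and distances were computed in Python 3.11.15 with pandas 2.3.3, after being tested on simulated data. Named genes are the 9 members, CERES, every called gene of 6 lists (66 genes), up to 3 more per list by mean RNA change, and the 5 nearest genes to ATHB2 and to the median; exceptions are marked. Sequences were read from RefSeq TAIR10.1 by locus with Biopython 1.88. Identity is over all alignment columns of the coding sequences, gaps included.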

Additional observations from a re-analysis of the deposited data

How the results depend on the processing

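Called genes among the 9 were recounted at adjusted p below 0.01 or 0.1, and at 0.05 with a log2 fold change of at least 1 in size. Counts in ceres-1 and in efficiency stayed at 0. In ceres-2 RNA the count of 2 became 1 (ATHB2) at 0.01 and 3 at 0.1. In ceres-2 footprints the count of 3 became 2 with the minimum fold change, without HAT1. The remaining counts were unchanged. With only the genes that have an adjusted p, the median footprint change moved to 0.33 in ceres-1 and 0.79 in ceres-2. Taken relative to the median of all genes tested, the ceres-1 RNA median was 0.33. In the deposited efficiency column, which holds 6 of the 9 genes and follows the footprints, the medians were 0.42 in ceres-1 and 0.79 in ceres-2, against 0.17 and 0.049 for the difference. Of the 5 genes nearest to ATHB2 by distance, 0 were among the 5 with the highest Pearson correlation, a measure that ignores size. The window of 1000 bases, added after seeing the data, gave 2 genes with a G-box and 6 with a PBE-box, against 0 and 3 within 300. No paired analysis was possible because only fold changes between groups are given, and for the same reason no library could be left out. Protein identity, planned as well, was not run; coding sequences were compared instead.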
